A study of Homo sapiens with 24 samples.

Results

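Full-length CAMTA1 was compared with the empty vector in SW872, a human liposarcoma cell line, where both lines were harvested at sub-confluence. The comparison rests on 6 RNA-seq libraries out of 24, 3 with CAMTA1 and 3 with the sub-confluent empty vector (EVsub). Genes were kept where their mean over those 6 libraries was at least 5 counts, which left 19348 of the 60279 genes in the files. The other 18 libraries form 6 groups of 3, with an empty vector (EV), TAZ-CAMTA1, TAZ4SA, YAP5SA, YAP-TFE3 or TFE3, all harvested, by the labels, 48 h after the cells reached confluence. Every line, the empty vectors included, was stably transduced with the pBabeNeo retrovirus, kept under G418 selection and carried on as a pool of cells, and the expressed proteins bore a double Flag tag. What density counted as sub-confluent is not given in the sources used here. The sub-confluence of EVsub comes from its sample titles, since the growth protocol in the labels names CAMTA1 alone as the exception. The 3 libraries of a group come from separate transductions of the same cell line, so the p-values below measure the spread between lines made from 1 cell source.

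CAMTA1 is a transcription factor of the calmodulin-binding family. Its CG-1 domain binds DNA, its IQ motifs bind calmodulin, and it is expressed mainly in the nervous system, where loss of the gene is associated with ataxia and impaired memory. In epithelioid hemangioendothelioma, a vascular sarcoma, its C terminus is fused to the TEAD-binding N terminus of TAZ, and the fusion lacks the CG-1 domain.

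The CAMTA1 gene (ENSG00000171735; hg38, chromosome 1, 6785454 to 7769706) checked the labels. It stood at 126, 126 and 113 CPM (counts scaled to each library's size, with edgeR's correction for composition) in the 3 CAMTA1 libraries and at 21.6, 22.5 and 24 CPM in the 3 EVsub libraries. The groups did not overlap, and the log2 fold change was 2.43 ± 0.09 (SE; edgeR quasi-likelihood test, adjusted p = 3.86e-15). Reads of the introduced copy and of the cell's own gene are counted together, so the rise cannot be divided between them. The level in the TAZ-CAMTA1 group, whose fusion carries part of the same gene, was 143 ± 6.58 CPM (SD, n = 3), and the other 5 groups, all with a construct lacking CAMTA1 or with none, stood between 19.4 and 26.2 CPM on average. The genes behind the other constructs of the series did not pass the test. YAP1 was at 168 ± 8.96 CPM with CAMTA1 and 152 ± 18.6 CPM in EVsub (adjusted p = 0.644 by edgeR), WWTR1, which encodes TAZ, at 232 ± 27.6 and 217 ± 8.03 CPM (adjusted p = 0.728 by edgeR), and TFE3 at 96.0 ± 1.18 and 98.2 ± 6.38 CPM (adjusted p = 0.956 by edgeR).

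The 6 libraries held between 20257695 and 34960377 counts each. In log2 CPM over the 500 most variable genes, the libraries lay 18.7 to 28.2 apart within CAMTA1, 19.1 to 22.9 apart within EVsub and 29.2 to 35.6 apart between the groups, and CAMTA1 replicate 3 was the farthest from its group. The cells kept the markers of a mesenchymal line in both groups, with 2936 to 3376 CPM summed over 10 such genes with CAMTA1 and 3000 to 3239 CPM in EVsub. The 10 immune markers summed to at most 2.34 CPM in any of the 6 libraries. The 10 epithelial markers summed to 444 to 610 CPM with CAMTA1 and 425 to 457 CPM in EVsub, and none of the 7 that were tested passed the test. Reads from the mitochondrial genome made up 4.07 to 4.71% of the CAMTA1 libraries and 3.20 to 3.59% of the EVsub libraries, and their part in the results below was not tested.

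CAMTA1 changed few genes, and the largest changes were gains. At an adjusted p under 0.05, 399 of 19348 genes differed (2.06%), of which 265 were higher (1.37%) and 134 lower (0.693%) with CAMTA1. The gain was at least 1 on the log2 scale for 106 genes and at least 2 for 42, whereas 30 genes fell by at least 1 and 0 by at least 2. The 3 libraries of one group lay wholly above the 3 of the other for 392 of the 399. Passing the test itself favours such a separation, and its share over all tested genes was not counted, so this number is no further support. Among all tested genes 2459 had an unadjusted p under 0.05. The count depended on the libraries: it was 191 without CAMTA1 replicate 1, 204 without CAMTA1 replicate 2, 462 without CAMTA1 replicate 3, and 250, 187 and 240 without EVsub replicates 1, 2 and 3. In each of those 6 fits 142 of the 399 were called in the same direction, 124 of them higher and 18 lower. When only the compared groups were fitted, 662 genes passed.

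The genes with the largest gains among well-counted ones included many that are best known from neurons. NEFL, the light chain of the neurofilament, was at 15.5, 16.8 and 13.4 CPM with CAMTA1 and at 0.644, 0.223 and 0.365 CPM in EVsub. It was close to absent in the control lines and well expressed in every CAMTA1 line, with a log2 fold change of 5.19 ± 0.38 (edgeR adjusted p = 1.49e-09). S100B, a calcium-binding protein known as a glial marker, rose from 0.508 ± 0.179 to 6.19 ± 0.869 CPM (log2 fold change 3.64 ± 0.29). MAP1A, which binds microtubules in dendrites, was at 130, 128 and 115 CPM with CAMTA1 and at 19.4, 23.4 and 17.3 CPM in EVsub, a log2 fold change of 2.64 ± 0.14 (edgeR adjusted p = 2.02e-12). VGF, a neuropeptide precursor stored in dense-core granules, was at 78.4, 69.6 and 56.9 CPM with CAMTA1 and at 10.9, 11.2 and 12.9 CPM in EVsub, a log2 fold change of 2.55 ± 0.23 (edgeR adjusted p = 1.08e-07). None of these genes had overlapping groups, and each was called in every fit that left out 1 library. NEFL and MCF2L, the latter described below, overlap another annotated gene on the same strand, with which reads could be shared.

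**Figure D1:**
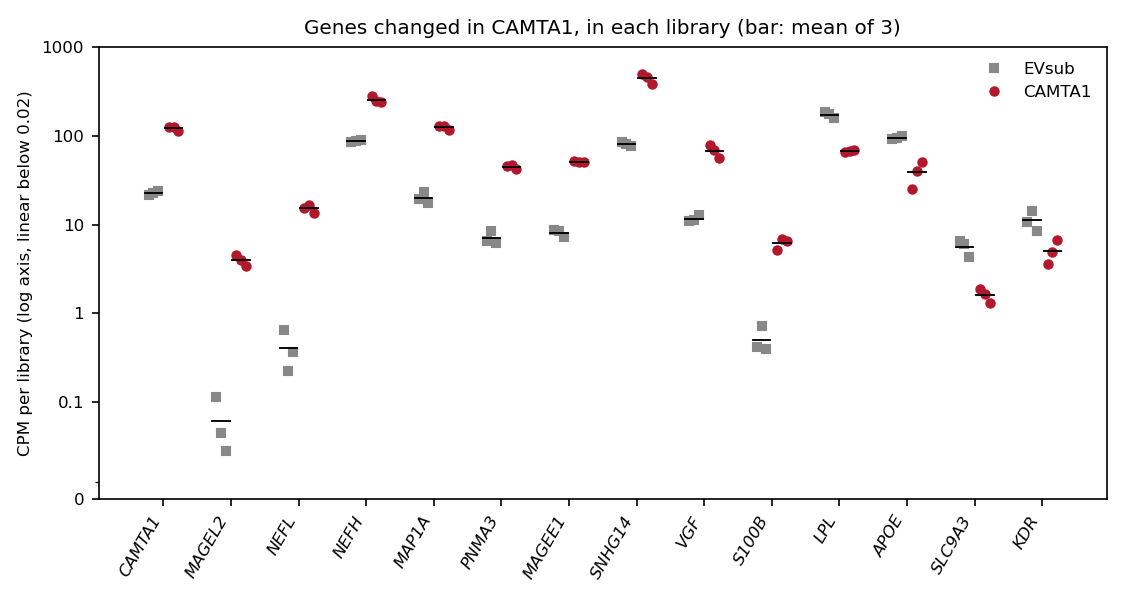
Level of 14 genes in each library, in CPM on a log axis that is linear below 0.02 CPM. Grey squares are the 3 EVsub libraries and red circles the 3 CAMTA1 libraries, and black bars are means. The red points lie above the grey ones for CAMTA1 and the 9 genes to its right up to S100B, and below them for LPL, APOE, SLC9A3 and KDR.

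Other members of the 15 largest gains were of mixed kinds. CDS1, which makes CDP-diacylglycerol for phosphoinositide synthesis, rose from 0.289 ± 0.102 to 7.76 ± 1.07 CPM (log2 fold change 4.70 ± 0.33). LINC00632, a long non-coding RNA on the X chromosome, rose from 0.373 ± 0.0326 to 6.0 ± 0.292 CPM (log2 fold change 4.01 ± 0.26). NAP1L2, a brain-enriched histone chaperone, rose from 0.622 ± 0.199 to 7.62 ± 0.650 CPM (log2 fold change 3.65 ± 0.32). MCF2L, an exchange factor for small GTPases, rose from 2.11 ± 0.243 to 13.1 ± 0.509 CPM, and MUC5AC, a secreted mucin, from 0.509 ± 0.347 to 3.03 ± 0.942 CPM. A further 5 of the 15, BEX5, PNMA3, MAGEE1, MAGEL2 and SNHG14, are described with their families and their locus below.

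Neuronal genes were then counted by role, over 10 lists with 350 genes in all. Of these 225 were tested, and 19 rose and 1 fell, which is 8.89% of the tested members beside 2.06% of all tested genes. The median log2 fold change over the tested members was 0.06 and over all tested genes -0.01. The count of 20 was 11 without CAMTA1 replicate 1, 12 without CAMTA1 replicate 2, and 13, 12 and 13 without EVsub replicates 1, 2 and 3. Members of the lists were chosen with earlier results of these data known. A gene could also pass the filter on counts through its CAMTA1 libraries alone. Shares here and in the single lists below are therefore descriptions and no test.

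The neuronal cytoskeleton had the largest share of called members among the 10 lists. Of its 13 tested members 7 rose and 0 fell, and the median log2 fold change was 0.67. Without CAMTA1 replicate 1 the 7 calls became 4. All 3 neurofilament subunits were among the 7. NEFH, the heavy chain, was at 282, 248 and 238 CPM with CAMTA1 and at 85.5, 88.4 and 89.4 CPM in EVsub, which gave a log2 fold change of 1.54 ± 0.09 (edgeR adjusted p = 3.38e-11). NEFM, the medium chain, rose from 1.28 ± 0.0904 to 3.65 ± 1.10 CPM, with an adjusted p of 0.00346 in edgeR that became 0.0501 without CAMTA1 replicate 1. MAP1B, the partner of MAP1A in growing axons, was already abundant in EVsub at 440 ± 43.2 CPM and stood at 1003 ± 79.1 CPM with CAMTA1 (log2 fold change 1.19 ± 0.17, edgeR adjusted p = 0.000115). TUBB3, the neuronal β-tubulin, and STMN3, a stathmin that binds tubulin, had small gains of 0.88 ± 0.23 and 0.40 ± 0.11 in log2. Their calls did not hold without single libraries: TUBB3 missed the threshold without any 1 of the 6, with adjusted p up to 0.210, and STMN3 without any but EVsub replicate 3, with adjusted p up to 0.188. MAP6, which stabilises microtubules in neurons, and KIF5A, the neuronal kinesin heavy chain, were on none of the lists and rose by 1.87 ± 0.24 and 1.53 ± 0.21. Both were picked out after their values were seen.

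Genes of the synapse gave a few gains. Of 26 tested genes of synaptic vesicle release 4 rose, namely SNAP25, SYP, DNM1 and VAMP1, and the list's median log2 fold change was 0.07. DNM1, the neuronal dynamin of vesicle retrieval, stood at 73.9, 73.3 and 77.7 CPM with CAMTA1 and at 49.4, 51.7 and 54.4 CPM in EVsub, a change of 0.53 ± 0.10 that was called without any 1 library. SNAP25, a SNARE protein, was at 2.98 ± 0.646 against 1.04 ± 0.354 CPM (log2 fold change 1.52 ± 0.39), and SYP, the vesicle protein synaptophysin, at 5.95 ± 0.778 against 3.75 ± 0.481 CPM. Their edgeR adjusted p-values were 0.0429 and 0.0459. The call of SYP was lost without any 1 library (adjusted p up to 0.210), that of SNAP25 without any but CAMTA1 replicate 3 (up to 0.206), and that of VAMP1, another SNARE protein, also without any but CAMTA1 replicate 3 (up to 0.262). UNC13B, which primes vesicles and is among the best expressed of the list, was at 92.0 ± 4.6 against 94.1 ± 2.09 CPM, with an adjusted p of 0.936 in edgeR.

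VGF was the 1 called gene among 9 tested for dense-core granules. SCG2, the granin secretogranin II, was at 75 ± 7.98 CPM with CAMTA1 and 51.5 ± 5.59 CPM in EVsub and did not pass (adjusted p = 0.320 in edgeR), and PAM, which amidates neuropeptides, was at 350 ± 27.1 and 325 ± 28.7 CPM. Among 17 tested scaffold and adhesion genes, CNTNAP1 alone was called. It encodes CASPR, an axonal protein beside the node of Ranvier, and was at 148, 142 and 137 CPM with CAMTA1 and at 65.6, 62.3 and 65.7 CPM in EVsub (log2 fold change 1.14 ± 0.09, edgeR adjusted p = 1.98e-08). L1CAM, the best expressed of that list, was at 277 ± 36.3 and 244 ± 51.2 CPM. Higher levels were also found for NFASC and CNTN2, whose products lie at the axonal membrane. Both genes were chosen with their values already known. NFASC, neurofascin, rose from 5.32 ± 0.384 to 13.8 ± 0.415 CPM. CNTN2, contactin 2, had 68 counts summed over the 3 CAMTA1 libraries and 1 over the 3 EVsub libraries, a ratio of levels of 67.6 with an exact 95% interval of 11.7 to 2709 that covers counting error only.

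Voltage-gated sodium channel genes rose in 3 cases out of 24 tested sodium and calcium channel genes. SCN4B, an accessory β subunit, was at 96.5 ± 8.97 against 48.8 ± 2.42 CPM, and SCN8A, a pore-forming α subunit of neurons, at 24.7 ± 4.14 against 13.9 ± 1.47 CPM. In the confluent EV, SCN4B was at 88.3 ± 10.7 CPM and SCN8A at 14.3 ± 0.846 CPM, and the part of density was not tested. SCN8A and SCN4B were called whichever library was left out. Of 31 tested potassium channel genes 1 rose and 1 fell. KCNQ3, a subunit of the M-current channel, was at 2.02, 1.30 and 0.732 CPM against 0.909, 0.535 and 0.506 CPM, so its groups overlapped, and the call was lost without CAMTA1 replicates 1 or 2 or EVsub replicates 2 or 3. KCNIP1, an accessory protein of A-type channels, fell from 4.46 ± 0.428 to 2.58 ± 0.551 CPM, with the call kept only without CAMTA1 replicate 2.

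No member was called among 19 tested neurotransmitter receptors, 13 neuronal transcription and RNA-binding factors, or 20 neurotrophins, neuropeptides and their receptors, at medians of -0.08, 0.00 and -0.01 in log2. The receptor subunits GABRE and GABRA3 were at 66.8 ± 23.4 against 50.8 ± 11.1 CPM and at 37.5 ± 0.670 against 36.5 ± 0.839 CPM. RCOR1, the corepressor that acts with REST on neuronal genes, was at 79.3 ± 5.22 against 83.2 ± 3.94 CPM. NGFR, the low-affinity neurotrophin receptor, was at 72.2, 65.2 and 77.4 CPM with CAMTA1 and at 114, 108 and 116 CPM in EVsub. These groups did not overlap, yet the log2 fold change of -0.65 ± 0.27 had an adjusted p of 0.286 in the edgeR fit, which takes its spread from all 24 libraries. Of 53 tested axon guidance genes 2 rose. SLIT2, a repellent for growing axons, went from 3.89 ± 0.149 to 8.69 ± 0.380 CPM (log2 fold change 1.15 ± 0.16), and SEMA5A, a semaphorin, passed narrowly (adjusted p = 0.0497 in edgeR), with the call lost without CAMTA1 replicates 2 or 3 or EVsub replicates 1 or 3 (adjusted p 0.131 to 0.245).

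Some defining markers of neurons were at the floor with CAMTA1 too. Of 10 neuron markers 5 passed the filter on counts, and all 5 rose (NEFL, NEFM, SNAP25, TUBB3 and SYP), but since a gene could pass the filter through its CAMTA1 libraries alone, this count is not evidence about the other 5. Without CAMTA1 replicate 1 the call was kept by 1 of the 5, and without any other library by 2 or 3. RBFOX3, SYT1 and ELAVL4, which define neurons, had at most 3 counts in each of the 6 libraries, and ELAVL4 had 0 in all of them. The 10 markers summed to 30.4 to 33.3 CPM with CAMTA1 and to 8.52 to 9.40 CPM in EVsub.

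**Figure D2:**
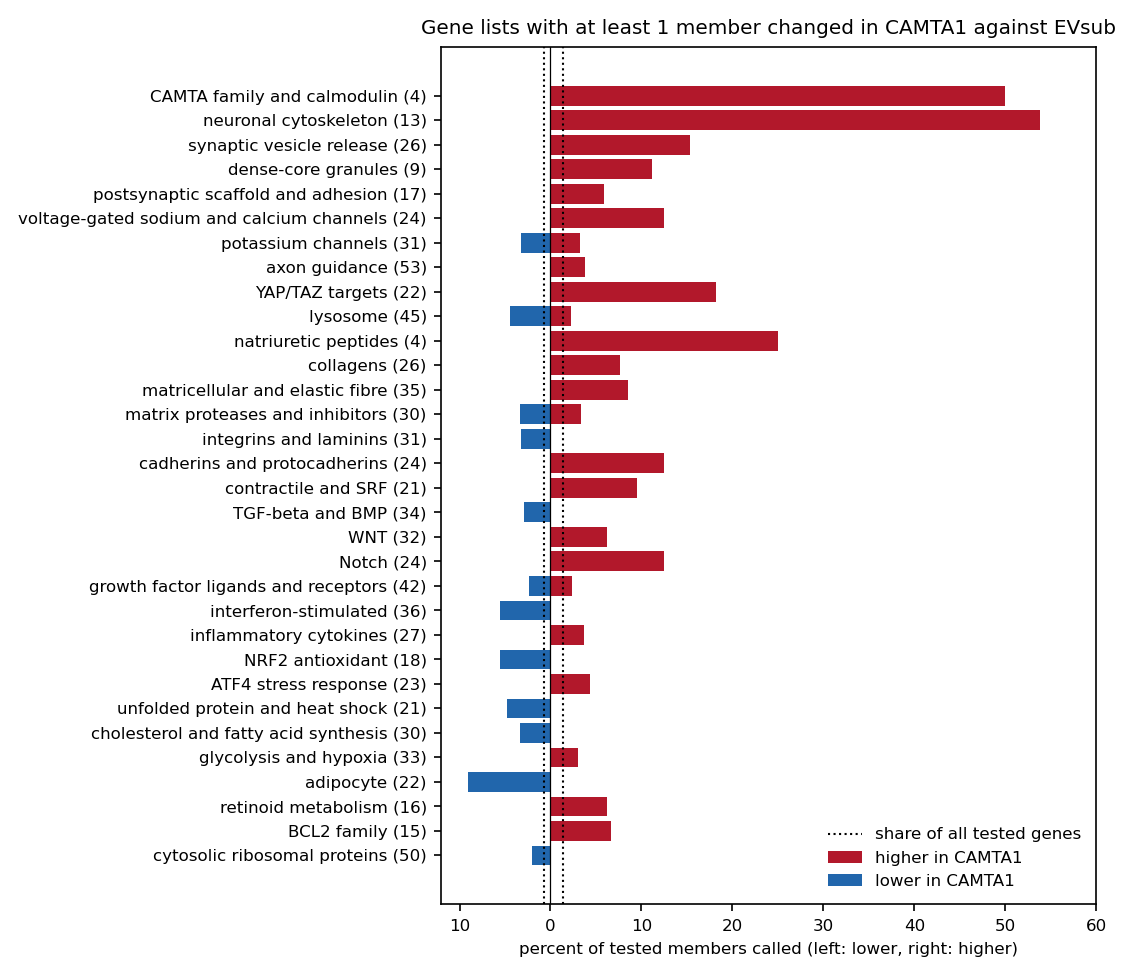
Share of tested members of each gene list called higher (red, to the right) or lower (blue, to the left) in CAMTA1 against EVsub, for lists with at least 1 call. The number of tested members is in brackets and dotted lines mark the shares over all 19348 genes (1.37% higher, 0.693% lower). The neuronal cytoskeleton has 7 of 13 members higher, while the other neuronal lists have between 1 and 4 members higher.

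One stretch of chromosome 15 stood out once genes were counted by chromosome. On chromosome 15, 29 of 652 tested genes were higher (4.45%), compared with 1.37% of all. The excess lay in the imprinted Prader-Willi domain at 15q11-q13, which is expressed from the paternal copy in most of its length and was chosen for description after its values were seen. Between MKRN3 and UBE3A (hg38, chr15:23565674-25439051) 20 genes were tested, of which 16 were higher and 0 lower, and 13 of the 632 tested genes elsewhere on the chromosome were higher. The files hold 110 annotated genes in this stretch, and a gene could pass the filter on counts through its CAMTA1 libraries alone. SNHG14, the long host transcript that is processed into the SNORD116 small nucleolar RNAs and runs antisense to UBE3A, was at 491, 455 and 387 CPM with CAMTA1 and at 85.4, 80.7 and 76.3 CPM in EVsub. That is a log2 fold change of 2.46 ± 0.11 (edgeR adjusted p = 2.66e-13), with no overlap between the groups. SNRPN, the spliceosomal gene from whose promoter the host transcript also starts, was at 6.69, 7.55 and 8.34 CPM against 1.86, 1.34 and 1.43 CPM (log2 fold change 2.28 ± 0.22, edgeR adjusted p = 1.90e-07). PWAR5, a non-coding RNA inside the host transcript, rose by 2.42 ± 0.34.

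Of 9 tested SNORD116 genes 8 were called higher, with log2 fold changes from 1.58 to 3.49 over the 9. The files hold 33 SNORD116 genes. Since a gene could pass the filter on counts through its CAMTA1 libraries alone, this count is not evidence about the untested ones. Of the 8 calls 4 were left without EVsub replicate 2, and 5 without either CAMTA1 replicate 1 or EVsub replicate 3. They had 7 to 52 counts per CAMTA1 library and 0 to 10 per EVsub library. These short genes lie inside SNHG14 on the same strand. The reads of the SNORD116 genes therefore cannot be separated from those of the host, and they are not 8 independent observations. Of the 20 tested genes 14 lie within its span, the host among them and 2 of them on the opposite strand. Whether reads of those 2 were kept apart from the host's depends on the strand setting, which is not given. None of the 48 other tested small nucleolar RNA genes was called. SNURF, which overlaps SNRPN, passed narrowly (adjusted p = 0.0480 in edgeR) and did not without any 1 library.

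MAGEL2 had the largest fold among all called genes. It is an intronless gene of the MAGE family at the centromeric end of the domain (hg38, chromosome 15, 23643549 to 23647867), and its product acts with a ubiquitin ligase in endosomal recycling. It had 153, 123 and 71 counts in the CAMTA1 libraries and 3, 1 and 1 in the EVsub libraries. The ratio of the summed levels was 69.0, with an exact 95% interval from 29.3 to 213.9 that covers counting error only, and the fitted log2 fold change of 5.98 ± 0.37 depends on how such low counts are treated. Its neighbours in the domain were not called. NDN, a MAGE relative and the next gene along, was at 52.1 ± 2.86 against 51.8 ± 1.48 CPM (log2 fold change 0.01, edgeR adjusted p = 0.992), and MKRN3 had a log2 fold change of -0.47 (edgeR adjusted p = 0.865) at under 1 CPM. At the other end UBE3A, a ubiquitin ligase expressed from both copies outside neurons, had one of -0.06 (edgeR adjusted p = 0.938).

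**Figure D3:**
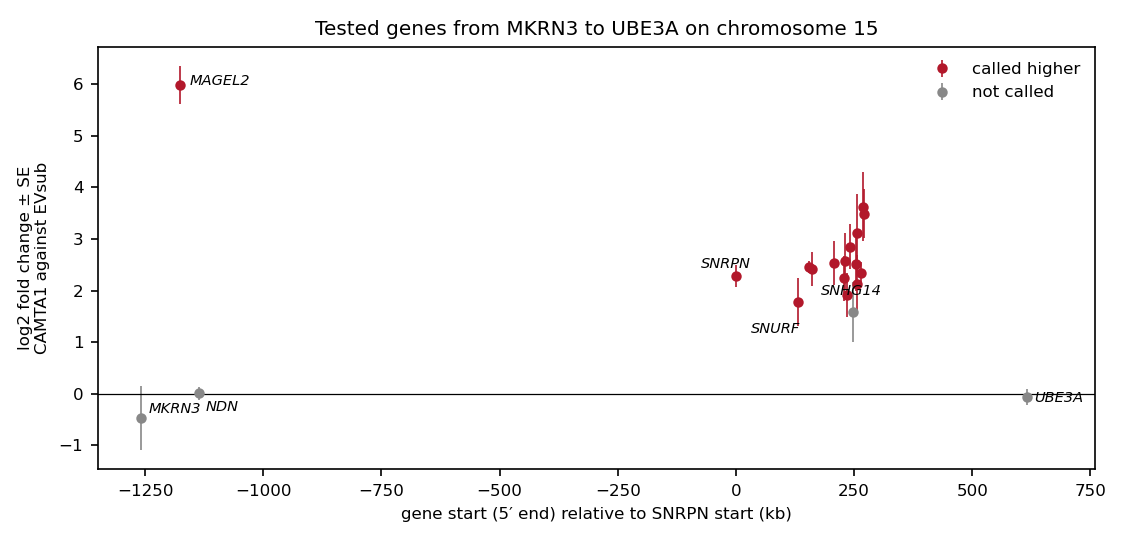
Log2 fold change with its SE, CAMTA1 against EVsub, for the 20 tested genes from MKRN3 to UBE3A, placed by the distance of the gene's 5′ end from that of SNRPN in kb. Red points are called higher and grey points are not. The run from SNRPN through SNHG14 lies between 1.58 and 3.63, MAGEL2 at 5.98, and NDN, MKRN3 and UBE3A near or below 0.

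The families around MAGEL2 were uneven, and they too were picked after their values were seen. Of 40 genes named MAGE in the annotation 22 were tested. The ubiquitously expressed or brain-enriched members, counted with their relatives NDN, NSMCE3 and TRO, were higher in 5 of 12 cases, beside 1.37% of all tested genes. MAGEE1, which binds dystrobrevin, was at 52.0, 51.2 and 50.9 CPM with CAMTA1 and at 8.71, 8.43 and 7.22 CPM in EVsub (log2 fold change 2.66 ± 0.18, edgeR adjusted p = 7.49e-10). MAGED2 rose from 272 ± 17.2 to 544 ± 14.2 CPM, TRO, trophinin, rose from 59.4 ± 5.25 to 143 ± 5.95 CPM, and MAGEE2 was at 1.41 ± 0.0665 against 0.216 ± 0.0165 CPM. The cancer-testis members of the MAGEA, MAGEB and MAGEC clusters were called in 3 of 13 tested cases, all lower, beside 0.693% of all tested genes. MAGEA11 fell from 27.7 ± 1.19 to 19.5 ± 1.48 CPM and was called in every fit. The calls of MAGEA1 and MAGEC2 did not hold without CAMTA1 replicate 2 or EVsub replicate 2, and that of MAGEC2 not without any 1 library. Genes of these clusters are similar in sequence, so reads may have been shared among them.

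Some members of other brain-enriched families on the X chromosome rose as well. These families were also picked after their values were seen, and 1.37% of all tested genes were higher. PNMA3, of a family derived from a retroelement Gag gene, was at 46.0, 46.6 and 42.3 CPM with CAMTA1 and at 6.51, 8.43 and 6.21 CPM in EVsub (log2 fold change 2.68 ± 0.13, edgeR adjusted p = 4.21e-13), and it was the only 1 of 6 tested PNMA genes to be called. BEX5 rose from 0.793 ± 0.131 to 5.45 ± 0.504 CPM, while none of the other 4 BEX genes was called. Of 3 tested GPRASP genes 2 rose. GPRASP2, a receptor-sorting protein, went from 7.78 ± 0.516 to 13.3 ± 0.558 CPM, and GPRASP3 from 7.86 ± 0.483 to 11.1 ± 0.0791 CPM, with the call of GPRASP3 lost without CAMTA1 replicate 2 or EVsub replicates 2 or 3 (adjusted p 0.0565 to 0.0791). Of 8 tested ARMCX and 6 tested TCEAL genes, which neighbour BEX5 and GPRASP2, 0 were called. On the whole chromosome 16 of 695 tested genes were higher (2.30%) and 10 lower (1.44%).

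Promoter sequences of 4 of the strongly raised genes are shown for the letters that a CG-1 domain and the cAMP response factors are known to recognise. Each runs from 250 bases before to 50 after the RefSeq start in build GRCh38.p14, 5′ to 3′ on the strand of the gene, and capitals mark CGCG, the core of the CG-1 site, and TGACGTCA, the cAMP response element, both of which read the same on either strand.
VGF (chr7:101165520-101165819, minus strand): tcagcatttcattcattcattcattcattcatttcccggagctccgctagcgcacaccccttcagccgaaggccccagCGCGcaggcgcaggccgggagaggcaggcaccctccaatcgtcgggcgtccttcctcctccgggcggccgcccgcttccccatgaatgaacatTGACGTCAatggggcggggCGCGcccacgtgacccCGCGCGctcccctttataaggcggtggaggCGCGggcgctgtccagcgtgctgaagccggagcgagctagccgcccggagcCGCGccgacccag
PNMA3 (chrX:153056220-153056519, plus strand): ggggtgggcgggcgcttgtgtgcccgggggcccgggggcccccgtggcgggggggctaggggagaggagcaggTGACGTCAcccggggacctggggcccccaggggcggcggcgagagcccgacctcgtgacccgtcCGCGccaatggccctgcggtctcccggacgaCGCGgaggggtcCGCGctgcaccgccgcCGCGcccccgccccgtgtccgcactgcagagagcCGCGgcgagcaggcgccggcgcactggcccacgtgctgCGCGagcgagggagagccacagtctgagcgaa
MAP1A (chr15:43510704-43511003, plus strand, the upstream of 2 listed starts): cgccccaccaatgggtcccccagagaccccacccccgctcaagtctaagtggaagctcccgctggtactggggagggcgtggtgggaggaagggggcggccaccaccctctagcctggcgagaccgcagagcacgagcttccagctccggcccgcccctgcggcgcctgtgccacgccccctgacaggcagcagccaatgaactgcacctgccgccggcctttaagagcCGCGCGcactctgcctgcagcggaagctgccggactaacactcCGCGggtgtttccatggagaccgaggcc
MAGEL2 (chr15:23647818-23648117, minus strand): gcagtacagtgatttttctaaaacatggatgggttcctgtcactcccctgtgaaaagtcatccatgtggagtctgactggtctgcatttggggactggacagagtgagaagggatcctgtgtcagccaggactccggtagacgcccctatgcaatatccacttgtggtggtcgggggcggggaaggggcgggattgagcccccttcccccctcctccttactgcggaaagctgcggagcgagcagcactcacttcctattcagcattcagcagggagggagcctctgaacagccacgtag
Counting overlapping matches, CGCG occurs 6 times in the VGF window, 6 times in that of PNMA3, 3 times in that of MAP1A and 0 times in that of MAGEL2, and TGACGTCA occurs 1 time each for VGF and PNMA3. Windows of CNTN2, MAGEE1, NFASC and SNRPN and the downstream start of MAP1A were also searched and are not shown. They hold TGACGTCA 0 times. CGCG occurs 1 and 5 times for CNTN2, 1 time for MAGEE1, 6 and 0 times for NFASC, 0 to 2 times for SNRPN and 0 times at the downstream start of MAP1A.

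The letters were common in promoters in general. CGCG was found in 71.1% of 18114 windows of 12609 tested genes, in 66.0% of the 300 windows of raised genes and in 54.5% of the 123 windows of lowered genes. ACGCGT, the longer form, was in 2.85%, 1.33% and 1.63% of them, and TGACGTCA in 2.64%, 2.00% and 0.813%. The E-box CAGCTG was in 17.7%, 18.3% and 21.1%, and GGAATG, the letters of a TEAD site, in 11.7%, 14.7% and 17.1%. Windows of 1 gene can overlap, and each window was searched on both strands.

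Calmodulin, the partner of the IQ motifs of CAMTA1, is encoded by several genes that give the same protein, among which CALM3 rose. It was at 551, 525 and 535 CPM with CAMTA1 and at 346, 364 and 372 CPM in EVsub (log2 fold change 0.57 ± 0.11, edgeR adjusted p = 0.00498). The groups of CALM2 did not overlap either, at 697 ± 27.6 against 574 ± 22.6 CPM, but its change of 0.28 ± 0.09 did not pass (adjusted p = 0.116 in edgeR). CAMTA2, the paralog, was at 31.6 ± 0.282 against 35.2 ± 1.59 CPM (adjusted p = 0.511 in edgeR).

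Targets of YAP and TAZ were called in 4 of 22 cases, all higher, beside 1.37% of all tested genes called higher. The median of the 22 was 0.26 in log2. CCN1, a secreted matricellular protein, was at 200, 186 and 170 CPM with CAMTA1 and at 103, 89.2 and 112 CPM in EVsub (log2 fold change 0.87 ± 0.11, edgeR adjusted p = 1.47e-05). CCN2, its relative, was at 209, 182 and 182 CPM against 109, 83.5 and 123 CPM (log2 fold change 0.86 ± 0.18), and its adjusted p of 0.00939 became 0.0640 to 0.0794 in the fits without CAMTA1 replicate 1 or EVsub replicate 2. AMOTL2, an angiomotin that restrains YAP, and PTPN14, a phosphatase that does so too, rose by 0.56 ± 0.10 and 0.38 ± 0.07. The level of CCN2 also differed with density, at 105 CPM on average in EVsub and 21.3 ± 5.32 CPM in the confluent EV, a difference that was not tested here.

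Genes of the matrix and of cell contacts gave a few gains. VCAN, the proteoglycan versican, was at 25.3, 36.4 and 36.4 CPM with CAMTA1 and at 16.7, 16.6 and 9.53 CPM in EVsub (log2 fold change 1.20 ± 0.21, edgeR adjusted p = 0.00162). THBS1, thrombospondin 1, rose by 0.85 ± 0.14 and COL12A1, a fibril-associated collagen, by 0.79 ± 0.12. Beside 1.37% of all genes called higher, 3 of 35 matricellular and elastic fibre genes, 2 of 26 collagens, 3 of 24 cadherins and protocadherins and 2 of 21 contractile genes were higher and 0 of each were lower. Without CAMTA1 replicate 1 the calls of ACAN, COL7A1, CDH2, CDH4 and MYH9 were lost, which left 2, 1, 1 and 1 in these lists, and without EVsub replicate 2 the same numbers were left. MYH10, non-muscle myosin IIB, rose from 337 ± 12.6 to 459 ± 4.93 CPM. Of 31 integrins and laminins 1 fell, ITGA1, the α subunit of a collagen receptor, from 288 ± 56.7 to 204 ± 21.4 CPM, with the call lost without CAMTA1 replicates 1 or 2 or EVsub replicates 1 or 3. SPTAN1, the α-spectrin of non-erythroid cells, was named after its values were seen and rose from 427 ± 6.5 to 723 ± 40.8 CPM (log2 fold change 0.76 ± 0.07, edgeR adjusted p = 1.85e-07).

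Signalling and metabolism gave isolated calls. Of 32 WNT pathway genes WNT7B and WNT9A, both ligands, were higher, and WNT7B was at 25.8, 17.5 and 12 CPM against 7.54, 4.86 and 8.66 CPM, a wide spread among the CAMTA1 lines (log2 fold change 1.39 ± 0.26, edgeR adjusted p = 0.00258). Of 33 glycolysis and hypoxia genes ALDOC, the aldolase of brain, was the 1 called, at 77.0, 88.0 and 101 CPM with CAMTA1 and at 18.3, 24.5 and 14.9 CPM in EVsub (log2 fold change 2.21 ± 0.43, edgeR adjusted p = 0.00399). BMF, a pro-apoptotic BH3-only protein, was the 1 called among 15 genes of the BCL2 family and rose from 8.73 ± 0.863 to 15.4 ± 2.90 CPM.

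Lowered genes changed less, and LPL and APOE, which handle lipids, were among the larger falls. LPL, lipoprotein lipase, which releases fatty acids from circulating triglyceride, was at 65.3, 66.8 and 68.9 CPM with CAMTA1 and at 185, 178 and 157 CPM in EVsub (log2 fold change -1.37 ± 0.15, edgeR adjusted p = 3.13e-06). APOE, the apolipoprotein, was at 25, 40.4 and 50.6 CPM against 91.3, 95.2 and 99.5 CPM (log2 fold change -1.31 ± 0.24, edgeR adjusted p = 0.00265), so the CAMTA1 libraries were spread while all lay below EVsub. Of 22 tested adipocyte genes LPL and GPD1 were lower and 0 higher, with a median of -0.12 in log2. Of 30 genes of cholesterol and fatty acid synthesis 1 was lower and 0 higher. Over all tested genes 0.693% were lower, and lists this small with so few calls do not make a class. GPD1, glycerol-3-phosphate dehydrogenase, stood at 0.237 ± 0.0267 against 0.680 ± 0.224 CPM and was not called without CAMTA1 replicates 1 or 2 or EVsub replicate 2 (adjusted p up to 0.123).

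The largest fall among well-counted genes was that of SLC9A3, the sodium-hydrogen exchanger NHE3, at 1.87, 1.66 and 1.32 CPM with CAMTA1 and at 6.48, 6.07 and 4.30 CPM in EVsub (log2 fold change -1.76 ± 0.23, edgeR adjusted p = 4.01e-05). CAPN6, a calpain-like protein without protease activity, fell by 1.37 on the log2 scale and RENBP, which interconverts N-acetylated sugars, by 1.21. TMEM255A was at 6.39, 6.22 and 6.24 CPM against 14.5, 12 and 11.7 CPM (log2 fold change -1.02 ± 0.13). KDR, the main VEGF receptor, was at 3.6, 4.95 and 6.63 CPM against 10.6, 14.2 and 8.57 CPM, and its adjusted p of 0.0101 rose to between 0.0572 and 0.109 without CAMTA1 replicates 1 or 2 or EVsub replicate 2. In the confluent EV, KDR was at 44.6 ± 8.70 CPM, and the part of density in its fall was not tested. Among the 15 largest falls by rule, SLC9A3, LPL, CAPN6, APOE, RENBP and TMEM255A were called whichever 1 library was left out, and C1orf115, CYSLTR2, KDR, ANK3, JPH4, RYR1, TRAF3IP3 and CFP were not. CAMTA1 replicate 1 was among the libraries whose omission ended the call in all 8, where the adjusted p lay between 0.0572 and 0.203.

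At 2.06% of all genes called, a list of this size may hold no call without differing from the rest. Lists with 0 called members were DNA replication (32 genes), mitosis (32), G1 cyclins and CDK inhibitors (15), AP-1 and immediate early genes (27), oxidative phosphorylation (38), the ATAC histone acetyltransferase complex (13) and HOX genes (34). Their median log2 fold changes lay between -0.05 and 0.21. Of 50 cytosolic ribosomal protein genes 1 was called, RPL36, which fell (a call lost without CAMTA1 replicates 1 or 2 or EVsub replicates 2 or 3, adjusted p 0.128 to 0.218), and all 50 had values below 0, with a median of -0.15. Of 45 lysosomal genes 1 was higher and 2 lower, and none of the 3 calls (CTSZ, GPNMB and RRAGD) held without every single library.

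Some transcripts of the mitochondrial genome were called higher, beside the share of reads noted above. Of 25 tested genes 7 were higher, against 1.37% of all genes, and 0 lower. Of the 7 calls 1 was left without CAMTA1 replicate 1, 4 without CAMTA1 replicate 2 and 2 without EVsub replicate 3. MT-ND5, a subunit of complex I, was at 2326 ± 465 CPM with CAMTA1 and at 1344 ± 146 CPM in EVsub (log2 fold change 0.79 ± 0.16, edgeR adjusted p = 0.00810), and without CAMTA1 replicate 1 or EVsub replicate 3 its adjusted p was 0.0602 to 0.0808. Of 38 nuclear genes of oxidative phosphorylation 0 were called. Small gains also went to long transcripts. The longest annotated transcript had a median of 3183 bases over all tested genes, 4722 over the raised genes, 7862 over the 64 raised by less than 0.5 in log2 and 3259 over the lowered genes. The part of transcript length was examined by a fit with offsets for length and GC content, in which 550 genes passed and 31 of the 399 did not.

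The full-length protein and the fusion were compared with their own controls, which share no library. With TAZ-CAMTA1, 968 genes passed the test when set against EV (5%), and 667 of these had risen (3.45%) and 301 had fallen (1.56%). Of the 399 genes of CAMTA1, 69 were also called with TAZ-CAMTA1, which is 17.3% of the former and 7.13% of the latter. Of the 69, 36 were higher in both, 9 lower in both, 11 higher with CAMTA1 and lower with TAZ-CAMTA1, and 13 the reverse. The 69 became 36, 40, 41, 34 and 43 without CAMTA1 replicates 1 and 2 and EVsub replicates 1, 2 and 3. A test of the difference between the 2 changes called 498 genes (2.57%), of which 198 had the more positive change with CAMTA1 (1.02%) and 300 the more negative (1.55%), and among them were 152 of the 399. By the labels the CAMTA1 and EVsub cells were sub-confluent and the TAZ-CAMTA1 and EV cells confluent, although the study's methods could be read as placing TAZ-CAMTA1 among the sub-confluent lines, so construct and density cannot be told apart in this difference.

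Few of the strongest gains of CAMTA1 were called with the fusion. Of 42 genes raised by at least 2 in log2, 1 was called higher with TAZ-CAMTA1, the CAMTA1 gene itself, and for 27 the difference passed the test. The log2 fold change with TAZ-CAMTA1 was -0.16 ± 0.13 for PNMA3, -0.09 ± 0.19 for MAGEE1, 0.12 ± 0.11 for SNHG14 and -0.27 ± 0.09 for NEFH. The difference was called for each of these, with adjusted p from 1.81e-10 for PNMA3 to 2.32e-07 for MAGEE1 in edgeR. MAP1A and VGF moved in opposite directions. MAP1A fell by 0.51 and VGF by 0.94 in log2 with TAZ-CAMTA1, and the differences from their changes with CAMTA1 were 3.15 ± 0.19 and 3.49 ± 0.35. Of the neuronal cytoskeleton 0 of 13 tested genes rose and 3 fell with TAZ-CAMTA1, beside 3.45% and 1.56% of all tested genes.

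**Figure D4:**
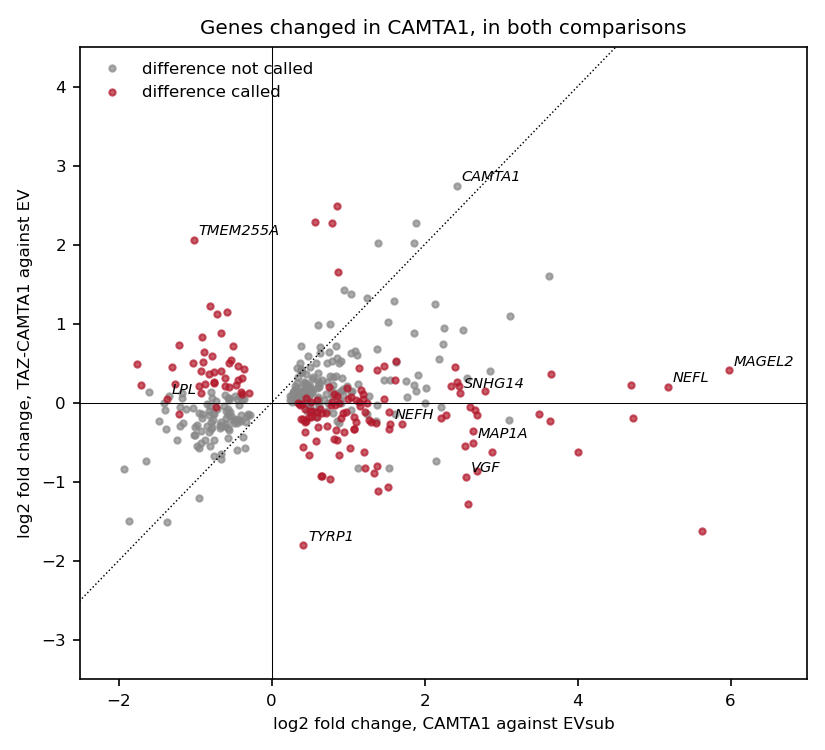
Log2 fold change of the 399 genes called in CAMTA1 against EVsub (horizontal) and in TAZ-CAMTA1 against EV (vertical). Red points are the 152 whose changes differed by the test, grey points the others, and the dotted line marks equal changes. The CAMTA1 gene lies near the dotted line, and most genes far to the right lie near 0 on the vertical axis.

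Some targets of YAP and TAZ had larger gains with the fusion, each construct being set against its own control. With TAZ-CAMTA1 9 of 22 rose, beside 3.45% of all tested genes. The gains were larger than with CAMTA1 for AMOTL2 (2.29 ± 0.11, difference -1.73 ± 0.14, edgeR adjusted p = 2.79e-08), CCN2 (2.48 ± 0.20, difference -1.62 ± 0.26) and CCN1 (1.65 ± 0.11, difference -0.78 ± 0.15). COL12A1 also rose more with the fusion (2.28 ± 0.12, difference -1.49 ± 0.16). In level, CCN2 was at 120 CPM with TAZ-CAMTA1 and 191 CPM with CAMTA1, CCN1 at 128 and 185 CPM, and AMOTL2 at 102 and 66.8 CPM. Their controls differed too. CCN2 was at 21.3 CPM in EV and 105 CPM in EVsub, CCN1 at 40.9 and 101 CPM, and AMOTL2 at 20.9 and 45.2 CPM. Construct and density cannot be told apart in these differences. A few genes rose with both and did not differ by the test, such as SPTAN1 (1.00 ± 0.07 with TAZ-CAMTA1, adjusted p of the difference 0.3 in edgeR), THBS1 (0.71 ± 0.14, adjusted p of the difference 0.851 in edgeR) and MYH9 (0.37 ± 0.10, adjusted p of the difference 0.871 in edgeR), whose own call with CAMTA1 was lost without CAMTA1 replicate 1 or EVsub replicate 2 (adjusted p 0.113 to 0.125). LPL, which fell with CAMTA1, had a log2 fold change of 0.05 ± 0.15 with TAZ-CAMTA1, and the difference was called.

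Across the 8 groups the levels of some of the leading genes set the CAMTA1 lines apart, and those of others did not. SNHG14 was at 444 ± 53.0 CPM with CAMTA1 and between 61.4 and 80.8 CPM on average in the other 7 groups, with SDs of 2.32 to 9.58 CPM. Among these, EVsub was at 80.8 ± 4.55 CPM and EV at 63.7 ± 2.32 CPM, a difference that was not tested. NEFH was at 256 ± 22.8 CPM with CAMTA1, at 90.0 ± 5.52 CPM with TAZ4SA and 87.8 ± 2.00 CPM in EVsub, which do not differ beyond their SDs, and lowest at 39.1 ± 0.415 CPM with YAP-TFE3. NEFL was at 15.2 ± 1.74 CPM with CAMTA1, next at 2.70 ± 1.02 CPM with YAP-TFE3 and between 0.290 and 0.696 CPM elsewhere. MAP1A was at 124 ± 8.07 CPM with CAMTA1, at 36.9 ± 4.12 CPM with TFE3 and 33.4 ± 5.6 CPM in EV, which do not differ beyond their SDs, and lowest at 3.97 ± 0.267 CPM with YAP5SA. VGF was at 68.3 ± 10.8 CPM with CAMTA1 and next at 20 ± 0.401 CPM with TAZ4SA. For these genes EVsub and EV lay closer to each other than either did to CAMTA1. LPL had no such pattern, as its level with CAMTA1, 67.0 ± 1.81 CPM, lay between those with TAZ4SA at 38.9 ± 7.07 CPM and YAP5SA at 89.0 ± 2.88 CPM.

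**Figure D5:**
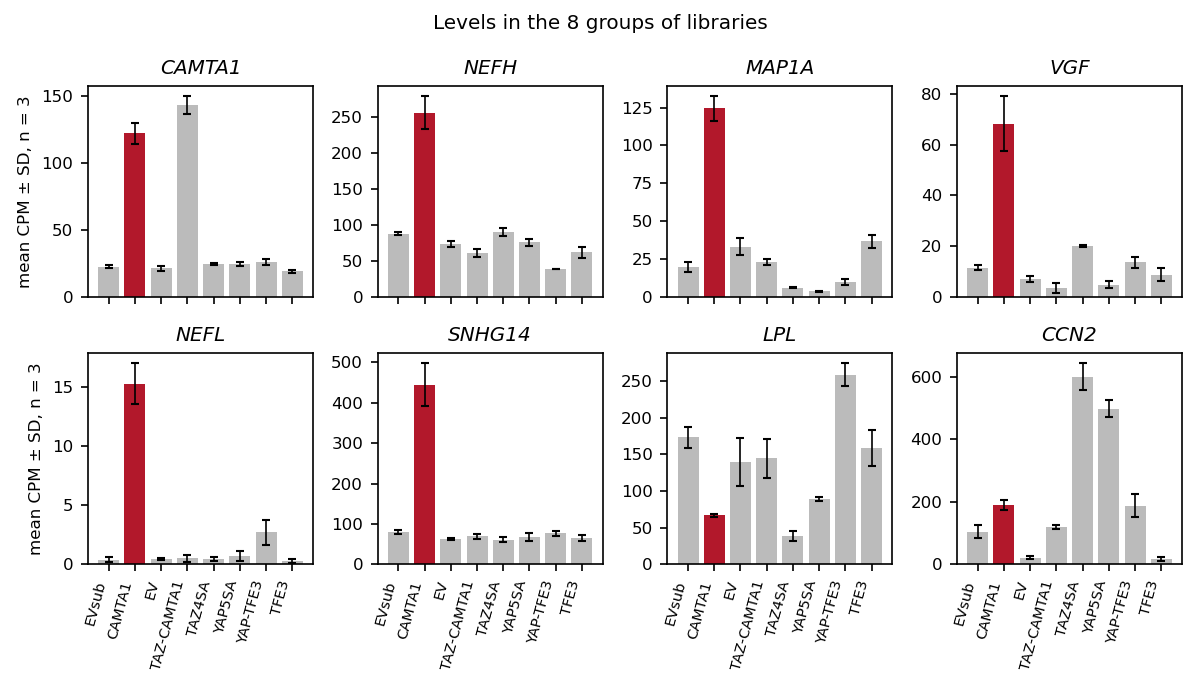
Mean level in CPM with SD (n = 3) of 8 genes in the 8 groups, with CAMTA1 in red. CAMTA1 is raised with CAMTA1 and TAZ-CAMTA1, NEFH, MAP1A, VGF, NEFL and SNHG14 are highest with CAMTA1, and LPL and CCN2 have their lowest and highest means in other groups.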

How the data were processed

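RNA of 24 SW872 lines was isolated with a column kit and on-column DNase, and libraries were made with a stranded poly(A) kit. Reads were aligned by the authors with Hisat2 to hg38 within bcbio-nextgen. Per the labels, the build is hg38 and bcl2fastq was used. The deposited values are raw counts per Ensembl gene, as whole numbers in 1 file per library. The methods also name Salmon with tximport as a route to gene-level counts. Which route made the deposited files, and any strand setting, are not given in the sources used here. Rows naming no gene were absent. Depth per library ran from 19700277 to 35287476 counts.

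Of the 60279 genes, 56104 matched GENCODE 44 on hg38 by identifier, among them 18967 of the 19348 tested, which supplied symbols, coordinates and transcript lengths. Counts were scaled by TMM and tested with edgeR 4.0.16 (R 4.3.3) by the quasi-likelihood F-test, with 1 mean for each of the 8 groups over all 24 libraries. P-values were adjusted by Benjamini and Hochberg over all tested genes, and an adjusted p under 0.05 was called. The SE is the log2 fold change divided by the square root of F. The exact permutation test of 3 against 3 libraries cannot go below p = 0.1 and was not used. Marker sums are in CPM of all counts. The test was checked on simulated counts with known changes.

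Genes named are the construct genes, the 15 largest gains and 15 largest falls among called genes that averaged 50 counts or more and whose groups do not overlap, called members of the gene lists, and the 2 best expressed members of each neuronal list; others are marked in the text as picked after their values were seen. Some genes that this rule names are not reported here. The members and all lists were chosen with earlier results of these data known. The alternatives were DESeq2 1.42.0 size factors, scaling by total counts, the DESeq2 test, other filters, the compared groups alone, a replicate block, length and GC offsets, and leaving out each library. The last but one was chosen after seeing the data.

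Same-numbered CAMTA1 and EVsub libraries were compared for shared deviations, with correlations of 0.105, 0.0224 and 0.0195, so the numbers were not taken as pairs.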

Additional observations from a re-analysis of the deposited data

Results flagged for a closer look

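For 24 genes the change with CAMTA1 against EVsub and the change with TAZ-CAMTA1 against EV were both called and ran in opposite directions, and the difference between the 2 log2 fold changes passed edgeR's test. These pairs share no library, and construct and density cannot be told apart in the difference. The genes that rose with CAMTA1 and fell with TAZ-CAMTA1, with the difference of the changes in log2, were VGF, a neuropeptide precursor (3.49), MAP1A, a microtubule protein (3.15), TYRP1 (2.22), EDN1, endothelin 1 (1.72), SYP (1.59), UBE2QL1 (1.57), DPYSL3, a growth cone protein (1.33), LPAR1 (1.15), CALM3 (1.06), STMN3 (0.96) and RUNX1 (0.8). The reverse held for DAPK1 (-0.69), TUB (-0.78), PAPLN (-0.9), SEL1L3 (-1.06), PRKCB (-1.07), ITGA1 (-1.21), RARRES2, the adipokine chemerin (-1.36), ZNF219 (-1.54), IL6R (-1.73), CLIC6 (-1.73), GPNMB (-1.84), KCNIP1 (-2.03) and TMEM255A (-3.08).

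The calls with CAMTA1 were small for most of them. VGF, MAP1A, DPYSL3, CALM3, RARRES2, IL6R and TMEM255A were called against EVsub whichever 1 library was left out, and each of the others lost that call without at least 1.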

How the results depend on the processing

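The 399 genes called between CAMTA1 and EVsub became 392 with DESeq2 size factors, 414 with total-count scaling, 543 with the DESeq2 test, 410 with no filter beyond 1 count and 383 with a mean of at least 20 counts. With the compared groups alone they became 662, the genes also called with TAZ-CAMTA1 149 in place of 69, and the differences between the changes 843 in place of 498. With length and GC offsets and the replicate block together these were 659, 134 and 786. The replicate numbers do not pair the libraries by the correlations given with the methods, and the replicate block alone gave 438 genes. Leaving out 1 library gave 187 to 462 genes, 11 to 16 neuronal genes, 34 to 76 shared with TAZ-CAMTA1 and 372 to 480 differences. The CAMTA1 gene kept its call in every fit. Of the 90 named genes that were called, 777 values from the other 9 fits kept the call and 29 lost it, against 357 and 183 in the leave-one-out fits, and none changed direction. Values near 0 that were not called did change sign. SORT1 was 0.0012539 with DESeq2 size factors, 0.0012394 with the DESeq2 test, 0.0041582 with no filter and -0.060715 to 0.061799 leaving out 1 library. RBFOX2 was -0.017885 with total-count scaling, -0.044432 with offsets, -0.046016 with offsets and block, and -0.01022 to 0.047498 leaving out 1 library. TFE3 was 0.013735 with offsets, 0.011142 with offsets and block, and -0.080067 to 0.011631 leaving out 1 library, and UNC13B was -0.059346 to 0.0063439. The cause of these shifts was not tested. With 3 libraries a group, genes of a few counts were measured too coarsely for a small change to be called.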
